A study of Mus musculus with 36 samples.

Results

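A circular RNA (circRNA) arises when a splice donor is joined to an acceptor that lies upstream of it, and the head-to-tail junction is what marks it in sequencing reads. Of the 33261 circles listed in the deposited tables of the mouse hippocampus and frontal cortex, 33156 lay on chr sequences outside the rule's excluded region of chromosome 17. For 3757 of these, 11.3%, no GENCODE M21 gene on the same strand of GRCm38 held both ends, and these circles without a host gene are described here. The other 29399 circles had a host gene on their strand. The 3757 circles were divided by position. In 195, the ends lay in 2 different genes of the same strand. In 2386, a gene on the opposite strand held both ends, and these are called antisense. In 508, only one end lay in a gene of the same strand, or the ends met opposite-strand genes without one gene holding both. The remaining 668 had neither end in a gene on either strand and are called intergenic.

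The tissues came from perfused male mice 9 to 10 weeks old, C57BL/6 by the labels and C57BL6/N by the methods, kept under light from 6 AM to 6 PM. No mouse carried an allele or received an agent that the labels name. Both tissues were sampled at ZT1, ZT5 and ZT9 in the light and at ZT13, ZT17 and ZT21 in the dark, with 3 replicates per time point and 18 samples per tissue. The sources used here do not say whether a hippocampus and a cortex sample of one number came from the same mouse, and p-values measure only the spread between these samples.

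Most circRNAs of the brain are made of exons of protein coding genes, use annotated exon ends, and are stable because they have no free ends. A circle outside any annotated gene can mark a transcript that the annotation lacks. It can also join exons of neighbouring genes whose transcripts run on, or carry the strand opposite to a known gene. CIRI2, which the authors used, reads the strand of a circle from the GT-AG splice signal beside its ends.

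In the hippocampus, ZT13 replicate 1 was the shallowest sample with 6754 circular reads and ZT1 replicate 3 the deepest with 73252. The cortex samples held 8107 to 34803. Circles from host genes that mark the hippocampus, among them Prox1, summed to a median of 20.6 reads per 10000 circular reads in the hippocampus and 5.08 in the cortex, with ranges of 7.67 to 32.6 and 0 to 7.75. Circles of 5 of the 7 cortical marker genes were listed, with medians of 1.02 in the hippocampus and 6.66 in the cortex. Microglial and choroid plexus marker genes gave no circles in either tissue, and oligodendrocyte and astrocyte markers gave at most 3.71 reads per 10000. In bulk tissue, fewer cells of a type and less RNA per cell cannot be told apart.

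The junctions of the circles whose ends lay in 2 genes are shown first, because many of them resembled an ordinary splice junction. Each line below gives the last 15 bases of the tail exon in lower case and the first 15 bases of the head exon in capitals, read from GENCODE M21 transcripts. The 3 circles were among those with the most reads of this class. They are N4bp2l2/Gm43597 at chr5:150604177-150608440 (minus strand), Acot2/Acot1 at chr12:83990494-84009966 (plus) and Scd3/Scd2 at chr19:44235771-44298170 (plus). The gene of the head is named first.
N4bp2l2/Gm43597: aagatgtcaacaaagAGGAAGAGTTTTGAA
Acot2/Acot1: tcttcctgcccccagAACCTGGACCCTTTC
Scd3/Scd2: accatggcgttccagAATGACGTGTATGAA

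The first 30 bases of each head exon were compared with the exon starts of the tail gene, and the last 30 bases of the tail exon with the exon ends of the head gene. In 55 of the 195 circles one of these comparisons gave at most 3 mismatches, in 139 neither did, and 1 could not be read. The values fell into separate groups: of 183 readable heads, 46 had 0 to 3 mismatches, 130 had 13 or more, and 7 lay between. In 40 of the 55, with 831 of the class's 2148 reads (38.7%), the tail was an annotated exon of the tail gene and the head was alike to the next exon of that same transcript. Over the bases compared, the head-to-tail junction of such a circle then differed by at most 3 bases from a linear junction of the tail gene.

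Acot2/Acot1, from neighbouring genes of acyl-CoA thioesterases, joined exon 1 of Acot1 to exon 2 of Acot2, whose first 30 bases had 0 mismatches with exon 2 of Acot1. Scd3/Scd2, from stearoyl-CoA desaturase genes, joined exon 3 of Scd2 to exon 4 of Scd3, again with 0 mismatches to exon 4 of Scd2. Mt2/Mt1 (chr8:94173336-94179888, plus), from the metallothionein genes whose products bind zinc and copper, joined exon 2 of Mt1 to exon 3 of Mt2, with 3 mismatches to exon 3 of Mt1.

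The same was found for a second Scd3/Scd2 circle (1 mismatch, 39 reads) and for Cyp4f16/Cyp4f37 (0 mismatches, 18 reads). N4bp2l2/Gm43597 was unlike these, since its head had 16 mismatches to the nearest exon start of Gm43597. So were Zfp933/Zfp984 (16 mismatches) and E230016M11Rik/A430010J10Rik (18 mismatches), which followed in reads. Circles with alike ends made up 46.1% and those with unlike ends 53.8% of the class's reads, and 8 and 11 of them were found in 2 or more replicates of a time point.

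The ends of antisense circles are shown next, because 99.5% of these circles had no end at an annotated exon end of their strand and many held a short repeat. For each circle, the first line gives 15 bases before and 15 bases from the head, and the second gives the last 15 bases of the tail and 15 bases after it, on the strand of the circle. The capitals mark the bases that occur at both ends, by which the junction could be shifted without changing its sequence. The circles are those antisense to Helz (chr11:107666026-107670068, minus), an RNA helicase, to Jph3 (chr8:121785345-121789475, minus), a junctophilin of the endoplasmic reticulum, and to Ptk2b (chr14:66171751-66172092, plus), a tyrosine kinase.
Helz head: caggacgggaTTCAGGacttctgttctgtg
Helz tail: tcttattaatTTCAGGtccagggttatttg
Jph3 head: caccgatcttGTCAGatgaaaaagttaata
Jph3 tail: tggggagaagGTCAGgtcccaacgcagcag
Ptk2b head: ggtgtacaggaCCAGagtgggtaccttcag
Ptk2b tail: tccatgataatCCAGgtgggttcctcttca

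Where the bases beside an end could be read from annotated exons, those before the head were AG in 1772 of 1772 circles without a host gene and those after the tail GT in 1809 of 1809. As CIRI2 reads the strand from this signal, the caller set these counts, and they are no support for the junctions. Both ends could be read for 1418 antisense circles. A repeat of 5 or more bases lay at the ends of 605 of these, 42.7%. Among circles with a host gene it was 44.2% of 1633 whose ends were both away from annotated exon ends, and 5.67% of 423 whose ends were both at annotated exon ends, which could be read only where another transcript has an exon across the boundary. The median repeat was 4, 4 and 2 bases. Of the antisense circles found in 2 or more replicates of a time point, 17 of 23 readable ones had 5 or more repeated bases, against 39 of 54 and 9 of 114 in the other groups. The circles within a group can share ends, so these shares are descriptions.

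**Figure D1:**
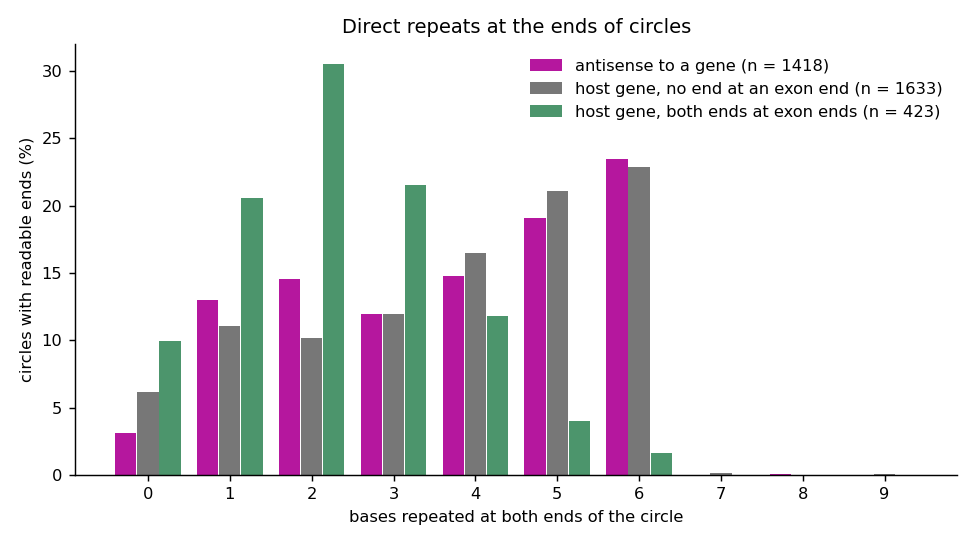
Number of bases repeated at both ends (x axis) and percentage of circles whose ends could be read from annotated exons (y axis), for antisense circles (n = 1418) and for circles with a host gene whose ends were both away from (n = 1633) or both at (n = 423) annotated exon ends. The first 2 groups had their highest bar at 6 bases and the third at 2 bases. Counts fell sharply after 6, from 333 to 0 antisense circles at 7 bases and from 374 to 2 in the second group. The bar at 6 is thus the upper edge of the values, and the reason was not tested.

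The classes differed in length, in the place of their ends and in reads. Antisense circles were the most numerous and the shortest, with a median of 234 nt between their ends on the genome and 72.8% under 1000 nt, against 11539 nt in circles with a host gene. The shortest were 135 nt, which was also the shortest length among circles with a host gene. Both ends lay in exons of the opposite-strand gene in 1649 of the 2386 (69.1%), both within the same exon in 860 (36.0%), and both in its introns in 677 (28.4%). None had both ends at exon ends annotated on its own strand. Circles with ends in 2 genes had a median of 59315 nt and 81.0% had both ends at annotated exon ends, compared with 72.0% of the circles with a host gene. Circles with one end in a gene had a median of 35268 nt, and 33.1% of them shared that or the other end with a circle that had a host gene. Intergenic circles had a median of 7882.5 nt, no annotated exon end, and a median distance of 27069 nt to the nearest gene of their strand.

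**Figure D2:**
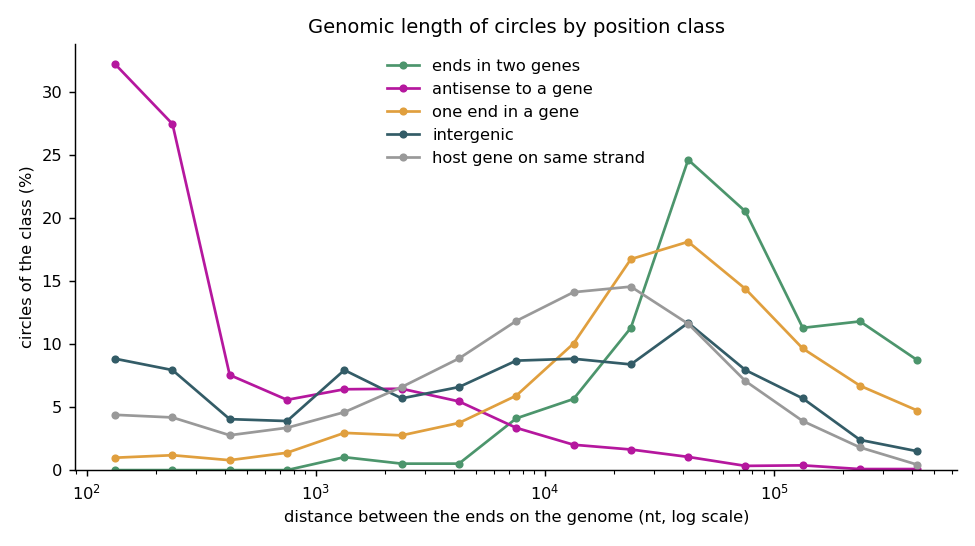
Distance between the ends on the genome (x axis, nt, log scale) and percentage of the circles of each class (y axis), in bins of equal width on the log scale. Antisense circles were mostly under 1000 nt, and circles with ends in 2 genes mostly over 10000 nt.

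The annotation decided part of the membership. RefSeq genes of GRCm38.p6, whose table gives no strand, held both ends of 194 intergenic circles (29.0%), of 131 with one end in a gene (25.8%) and of 24 with ends in 2 genes (12.3%). N4bp2l2/Gm43597 was among the last, as RefSeq's N4bp2l2 held both ends. Of the circles with one end in a gene and the most reads, RefSeq's Bicral held both circles that ended in Bicral (190 and 88 reads), a gene of a chromatin remodelling complex, and RefSeq's Gm27188 and Gm32786 held those with 127 and 119 reads.

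All 3757 circles together had 17352 circular reads, 2.21% of the reads on chr sequences outside the excluded region. Antisense circles had 6581 reads, intergenic circles 5346, those with one end in a gene 3277 and those with ends in 2 genes 2148. The median was 2 reads per circle over all samples in each of the 4 classes and 3 in circles with a host gene, and 2 is the smallest count above 0 in the tables. The highest read number of a single circle was 369, against 53168 among circles with a host gene.

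Per sample, these circles took 1.78%, 2.16% and 2.81% (lowest, median and highest) of the circular reads in the hippocampus and 1.78%, 2.18% and 3.61% in the cortex. The means were 2.13% ± 0.274 (SD, n = 18) and 2.29% ± 0.434 (SD, n = 18), and the tissues overlapped. The highest value was in cortex ZT9 replicate 3, with 95% Wilson limits of 3.22% and 4.04%, and the second shallowest sample of all had it. Intervals cover counting error only. Hippocampus samples had 2.17% ± 0.292 in the light and 2.09% ± 0.264 in the dark (SD, n = 9). Cortex samples had 2.43% ± 0.576 and 2.15% ± 0.157 (SD, n = 9), and the phases overlapped in both tissues. Among the classes, intergenic circles differed most between the tissues, with 0.582% ± 0.0855 (SD, n = 18; 0.433% to 0.710%) of the reads in the hippocampus and 0.762% ± 0.105 (SD, n = 18; 0.540% to 0.919%) in the cortex. No test was made of these sums over members.

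**Figure D3:**
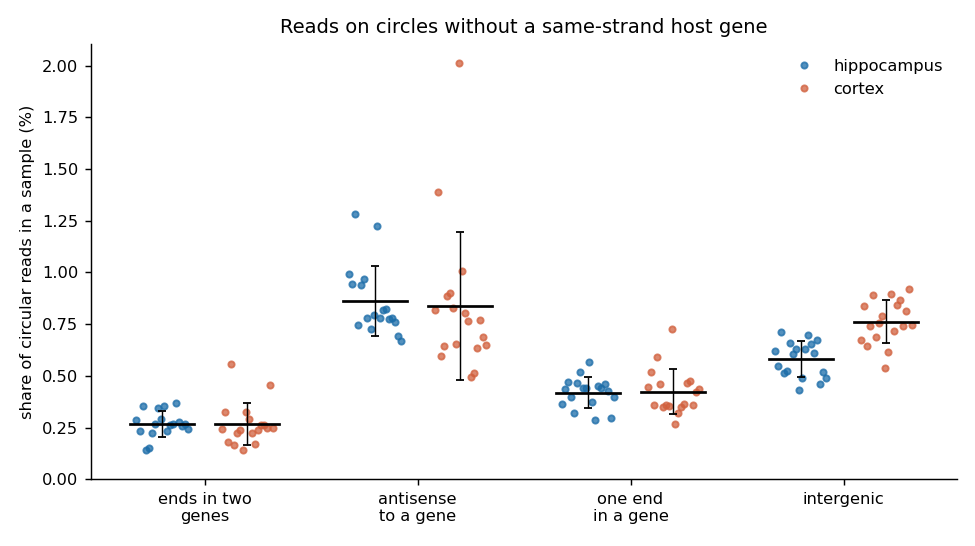
Share of a sample's circular reads on each class of circles (y axis, %), with a point per sample (18 per tissue) and the mean ± SD as bars. Antisense circles reach 2.01% in one cortex sample, and the intergenic circles of the cortex lie at 0.762% ± 0.105.

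Replicate support set the classes apart. Of the antisense circles, 93.7% were found in 1 sample only, compared with 76.3% of the intergenic circles, 73.4% with one end in a gene, 75.4% with ends in 2 genes and 57.3% with a host gene. At a time point of the hippocampus, 3.05% ± 0.351 (SD over 6 time points) of the antisense circles found there were found in at least 2 of the 3 replicates. The share was 19.0% ± 3.12 for intergenic circles, 19.6% ± 5.36 with one end in a gene and 22.5% ± 6.63 with ends in 2 genes, against 35.1% ± 1.97 with a host gene. In the cortex the shares were 2.16% ± 0.703, 22.5% ± 1.89, 18.8% ± 4.95, 20.6% ± 5.004 and 36.1% ± 1.92. In each of the 12 combinations of tissue and time point, each class without a host gene lay below the circles with one.

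Circles with more reads are found again more readily, so detections with exactly 2 reads were also compared. A circle with 2 reads in one sample can have more in others, so this does not remove the effect of reads. Of such detections, 2.85% ± 1.21 (SD over 6 time points) of the antisense, 19.3% ± 4.54 of the intergenic and 32.6% ± 2.48 of the circles with a host gene were met by another replicate of the time point in the hippocampus. In the cortex these shares were 2.28% ± 1.30, 20.6% ± 5.10 and 33.3% ± 2.21. Circles with one end in a gene had 23.2% ± 5.55 in the hippocampus and 20.2% ± 5.51 in the cortex, and those with ends in 2 genes 12.1% ± 11.3 and 11.4% ± 10.5. At 2 reads the latter thus lay below the intergenic circles, unlike in the hippocampus with all reads. Each of the 4 classes lay below the circles with a host gene in 12 of 12 combinations. Found in 2 replicates of some time point, in either tissue, were 35 antisense, 68 intergenic, 57 one-end and 19 circles with ends in 2 genes, 179 of 3757 (4.76%), compared with 6458 circles with a host gene (22.0%). These 179 circles held 8031 reads, 46.3% of those on circles without a host gene.

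**Figure D4:**
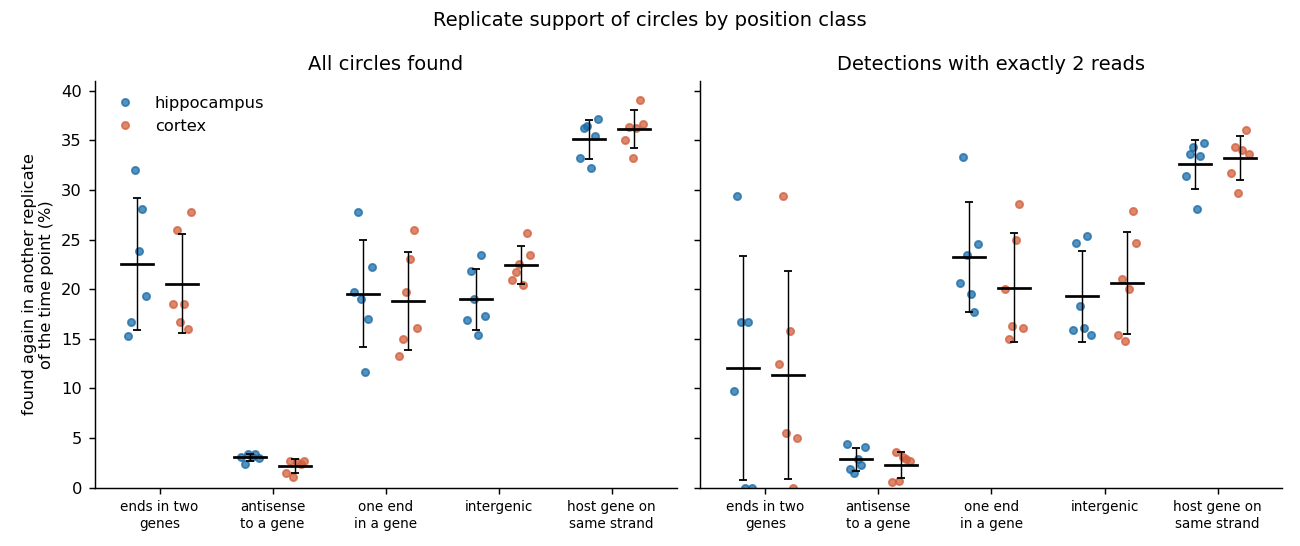
Share of circles found at a time point that were also found in another replicate of it (y axis, %), for all circles (left) and for detections with exactly 2 reads (right), with a point per time point (6 per tissue) and the mean ± SD. Antisense circles lie between 0.606% and 4.45%, and circles with a host gene between 28.1% and 39.0%.

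Of the antisense circles, few recurred. The circle antisense to Fam205c (chr4:42871557-42873355, plus), with one end in coding sequence and one in an intron, was found in 35 of 36 samples with 221 reads. It had 2, 5 and 14 reads (lowest, median and highest) in the hippocampus and 0, 7 and 16 in the cortex, or 2.54 ± 0.845 and 3.30 ± 1.87 reads per 10000 circular reads (SD, n = 18). The tissues overlapped. The circle antisense to Dnm1 (chr2:32336189-32337754, plus), which encodes the dynamin of synaptic vesicle endocytosis, had 158 reads in 18 samples.

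In the hippocampus, the circle antisense to Dnm1 was found in all 3 replicates at ZT1 (12, 16 and 24 reads) and ZT13 (7, 8 and 4), in 2 of 3 at ZT5, ZT9 and ZT17, and in none at ZT21. In the cortex it was found in 6 of 18 samples with at most 8 reads. Those antisense to Dlgap1, a postsynaptic scaffold gene, Helz and Jph3 had 51, 41 and 36 reads in 11 to 15 samples. The reads spread over many genes: 1354 of the 1764 opposite-strand genes had a single antisense circle and 36 had 5 or more. Map1a, a microtubule-associated protein of neurons, had 15, the nuclear RNA Malat1 had 12, the kinesin Kif1a had 11, and the scaffold Shank1 had 10.

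Of the circles with ends in 2 genes, N4bp2l2/Gm43597 had reads in 36 of 36 samples. It had 3, 9 and 24 reads (lowest, median and highest) in the hippocampus and 4, 10 and 17 in the cortex, or 4.37 ± 2.07 and 5.37 ± 1.47 reads per 10000 (SD, n = 18), and the tissues overlapped. Acot2/Acot1 was found in 32 samples, with medians of 7.5 and 3.5 reads and highest counts of 33 and 11. Mt2/Mt1 was patchy: 186 reads came from 15 samples, and in the hippocampus 44 of 112 from ZT1 replicate 3, the deepest sample.

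Within a time point, Mt2/Mt1 was absent from some replicates and high in others, such as 12, 0 and 44 reads at hippocampus ZT1 and 10, 18 and 0 at cortex ZT21. Scd3/Scd2 had 150 reads in 20 samples, Zfp933/Zfp984 138 in 27 and E230016M11Rik/A430010J10Rik 99 in 23. Psme4/Asb3 (chr11:30878379-30885542, plus), had its head in Psme4, the gene of a proteasome activator. Its tail lay within both Asb3 and Gpr75, at an exon end read from a Gpr75 transcript, and RefSeq's Erlec1 held both ends. It had 89 of its 95 reads in the cortex, from 9 of 18 samples, and in the hippocampus 6 reads in 1 sample.

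The intergenic circles with the most reads were a pair that shared their head at chr15:5322244 (plus). The shorter, chr15:5322244-5323612, lay within RefSeq's Gm41257 and had 0, 14.5 and 45 reads (lowest, median and highest) in the hippocampus and 0, 4 and 14 in the cortex. The longer, chr15:5322244-5333050, had 0, 11.5 and 39 and 0, 6.5 and 12. Both were at 0 in the hippocampus only in ZT13 replicate 1, the shallowest sample, and the tissues overlapped in both. The nearest GENCODE gene of the strand lay 40894 nt away.

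The third, chr7:60785638-60856304 (minus), had 0, 7 and 11 reads in the hippocampus and 0, 9 and 17 in the cortex. A circle of 386 nt at chr12:109718114-109718499 (plus), 255 nt from Mir495 in the imprinted Dlk1-Dio3 region, was found in 31 samples with 80 reads in the hippocampus and 90 in the cortex. The next in reads were unequal between the tissues. The circle chr4:23771757-23772887 (minus) had 26 reads in the hippocampus and 124 in the cortex, and chr16:60837773-60838183 (plus) had 120 and 19.

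The circle on chromosome 7 belonged to a dense locus. It lay on the minus strand between Ube3a, the ubiquitin ligase gene of Angelman syndrome, and Magel2, an imprinted gene of the Prader-Willi region. The long noncoding transcript Snhg14 runs through part of this stretch, but no RefSeq gene held both ends of chr7:60785638-60856304. In this window (chr7:59228750-62381640), chosen after the values were seen, lay 121 circles without a host gene, 70 of them intergenic and 43 with one end in a gene. They had 1784 reads, 10.3% of all reads on circles without a host gene, although they were 3.22% of the circles, and 116 of the 121 shared an end with another circle. The 70 intergenic ones held 26.2% of all intergenic reads. On the same strand of the window, 762 circles had a host gene. Of the 121, 42 lay within a RefSeq gene, such as Snhg14 or A230006K03Rik.

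Reads of the 121 circles summed to 7.34, 18.7 and 26.4 per 10000 (lowest, median and highest) in the hippocampus and 18.2, 29.2 and 34.3 in the cortex. The means were 17.3 ± 5.53 and 28.2 ± 4.43 (SD, n = 18), and the tissues overlapped. Hippocampus samples had 16.2 ± 5.62 in the light and 18.5 ± 5.51 in the dark, and cortex samples 27.7 ± 3.58 and 28.8 ± 5.31 (SD, n = 9). No test was made of this sum over members. The heads and tails were reused: 6 circles with 386 reads had their head at position 60856304, and 6 with 289 reads at 61116959. In the Meg3 to Dio3 window of chromosome 12 (chr12:109541001-110281097, plus), 19 circles had 239 reads, of which the circle beside Mir495 had 170.

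Within the Ube3a to Magel2 window, some circles spanned miRNA genes of the Mir344 family. In all, 44 circles without a host gene held a RefSeq miRNA hairpin of their strand between their ends, 25 of these held one of the Mir344 family, and 4 of the 44 were found in at least 2 replicates of a time point. The circle chr7:62019949-62068450 (28 reads, 10 samples) spanned Mir344f, and chr7:62063933-62094678 (23 reads, 7 samples) spanned Mir344i. Circles of this length may be spliced inside, so the files do not show whether the hairpin is kept. The mature sequences from RefSeq (GRCm38), with the seed in capitals, show members of the family with different seeds.
mmu-miR-344f-5p: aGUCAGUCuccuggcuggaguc
mmu-miR-344g-5p: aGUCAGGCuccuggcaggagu
mmu-miR-344i: aAGUCAGGcuccuggcugga
The only other miRNA gene spanned by a circle with over 20 reads was Mir107, within chr19:34795615-34827373 (21 reads, 10 samples).

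Whether single circles differed between the tissues was tested with edgeR over all circles found in at least 2 replicates of a time point. Of the 179 circles without a host gene that met this rule, 8 passed the filter on low counts. The filter asked for a set height of reads in a minimum number of samples, so these 8 do not stand for all members. The circle antisense to Fam205c, found in 35 of 36 samples, did not pass it. In one fit of 36 samples, 217 of 710 circles differed, a background of 30.6% called, and 3 of the 8 did. In the direction of the hippocampus 2 of the 8 were called (background 16.5%), and in that of the cortex 1 (background 14.1%). In the fits of single tissues, the pair on chromosome 15, Mt2/Mt1 and the circle antisense to Dnm1 passed the filter in the hippocampus only, and chr7:60785638-60856304 and Psme4/Asb3 in the cortex only. Each circle called had thus passed in the tissue where it was higher, and nothing is read from these counts.

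The pair on chromosome 15 was higher in the hippocampus. As it had passed the filter through that tissue, its values and p-values are given as a description. The shorter circle had 6.16 ± 2.62 reads per 10000 circular reads in the hippocampus and 2.35 ± 1.41 in the cortex (SD, n = 18), a log2 difference of 1.37 ± 0.26 (SE, edgeR, adjusted p = 0.000141). The longer had 5.23 ± 2.73 and 2.82 ± 1.58 (log2 difference 0.86 ± 0.26, adjusted p = 0.0121). As they share an end, they are not independent of each other.

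The circle chr7:60785638-60856304 was higher in the cortex, with 4.99 ± 2.19 reads per 10000 against 2.58 ± 1.52 in the hippocampus (SD, n = 18; edgeR, log2 difference -0.91 ± 0.30, SE, adjusted p = 0.0215). Without cortex ZT13 replicate 2 its adjusted p was 0.0571. This circle had passed the filter through the cortex, so its values are a description too. Acot2/Acot1 had a log2 difference of 0.83 ± 0.36 (adjusted p = 0.0787). It passed the threshold in 5 of the 36 fits without 1 sample, those without hippocampus ZT17 replicate 3 and cortex ZT1 replicate 2, ZT5 replicate 1, ZT9 replicate 3 or ZT17 replicate 3 (adjusted p 0.0205 to 0.0457), and with DESeq2 (adjusted p = 0.0458). The difference was -0.31 ± 0.18 for N4bp2l2/Gm43597 (adjusted p = 0.210). For Mt2/Mt1, Psme4/Asb3 and the circle antisense to Dnm1 this fit could not give a usable standard error, because at least 1 time point had no reads in a tissue.

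A fit with fewer terms, tissue and time point, was therefore added after the data were seen. It called 215 of 710 circles (30.3%) and 5 of the 8, the same 3 and a further pair. The pair was Psme4/Asb3 and the circle antisense to Dnm1, whose values are given as a description, since each passed the filter through the tissue where it was higher. Psme4/Asb3 had 0.204 ± 0.865 reads per 10000 in the hippocampus and 2.30 ± 2.82 in the cortex (SD, n = 18). Mt2/Mt1 had a log2 difference of 0.26 ± 0.69 (SE, edgeR, adjusted p = 0.808). The circle antisense to Dnm1 had 3.34 ± 3.10 reads per 10000 in the hippocampus and 0.699 ± 1.16 in the cortex (SD, n = 18), and the samples of the tissues overlapped.

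Without the filter, 346 of 6656 circles were called (5.2%) and 14 of 179 without a host gene, 4 higher in the hippocampus (background 3.03%) and 10 in the cortex (background 2.16%). Of the 14, 12 were intergenic. The rule of 2 replicates could be met in 1 tissue alone. The circle chr17:66257932-66262475, with 0 reads in the hippocampus, met it through the cortex only. Some of the 14 also share ends, so nothing is read from these counts either. The values and p-values that follow are a description. Beside the 3 named above, chr16:60837773-60838183 was higher in the hippocampus, with 2.87 ± 1.08 against 0.501 ± 0.706 reads per 10000, and it was found in 18 of 18 hippocampus and 7 of 18 cortex samples (SD, n = 18; edgeR, log2 difference 3.11 ± 0.53, SE, adjusted p = 8.7e-07). Scd3/Scd2 was the other (2.05 ± 0.54, adjusted p = 0.00530).

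Higher in the cortex were 3 circles within RefSeq's Gm34459 on chromosome 19, of which chr19:60658861-60665265 (minus) was found in 18 of 18 cortex and 7 of 18 hippocampus samples (edgeR, log2 difference -2.99 ± 0.52, SE, adjusted p = 1.34e-06). The circle chr4:23771757-23772887 followed with -3.07 ± 0.51 (adjusted p = 2.25e-07), then chr12:5451681-5452852 (plus) with -1.86 ± 0.45 (adjusted p = 0.00194) and a pair on chromosome 7 that shared ends with the circles above. The circle chr17:66257932-66262475 (minus) had 39 reads in 10 cortex samples and 0 in the hippocampus. A circle with one end in Dpp10, an auxiliary subunit of potassium channels, had 35 reads in the cortex and 7 in the hippocampus (-3.06 ± 0.82, adjusted p = 0.00756). Of the 11 circles called only without the filter, 10 had a median of 0 reads in the lower tissue, so the log2 differences depend on how edgeR treats low counts.

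**Figure D5:**
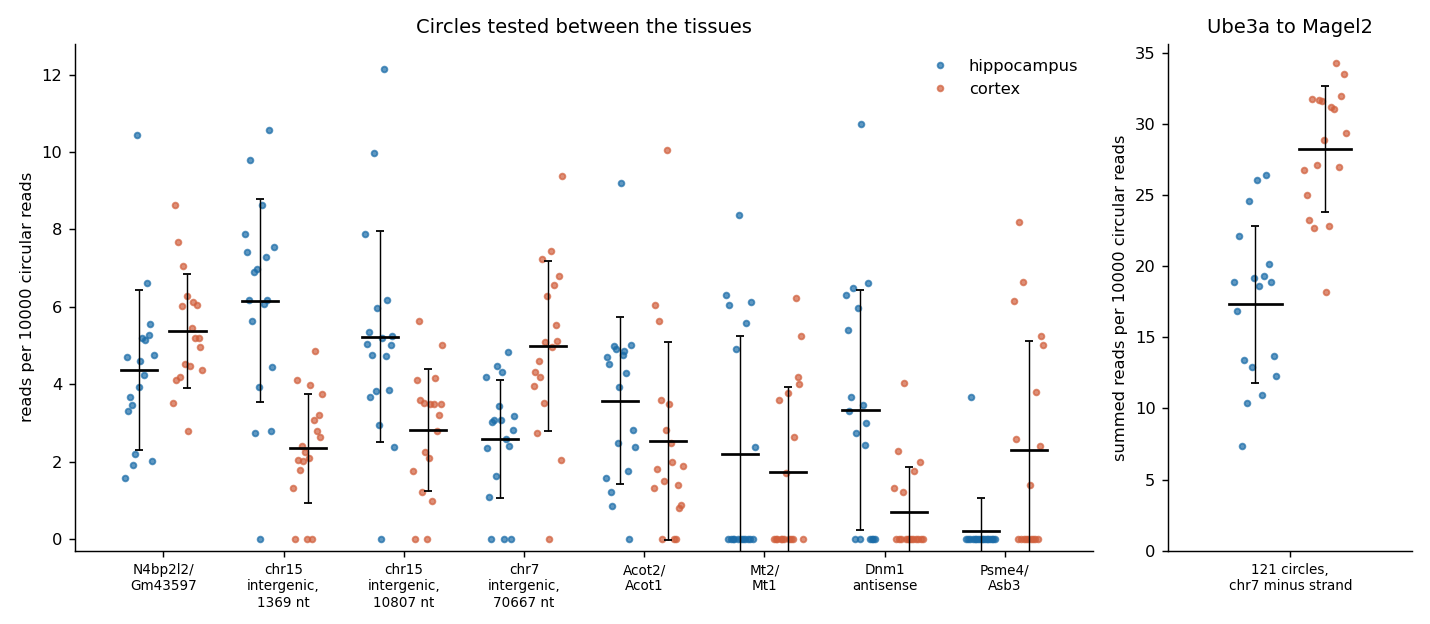
Reads per 10000 circular reads (y axis) in each hippocampus and cortex sample (18 per tissue) for the 8 circles without a host gene that passed the filter (left), and the sum over the 121 circles of the Ube3a to Magel2 window (right). Horizontal lines are means and bars are SD, cut at the bottom of the axis, and the tissues overlap in every case.

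No circle without a host gene passed the test between the dark and the light phase. In the hippocampus 0 of 582 circles were called by edgeR (0%), among them 0 of 6 without a host gene, and in the cortex 0 of 518 (0%) and 0 of 4. An unadjusted p under 0.05 was reached by 28 and 16 circles. DESeq2 called 0 in both tissues, with 23 and 17 at an unadjusted p under 0.05. Without the filter edgeR called 4 of 5505 (0.0727%) and 0 of 4790, and all 4 had a host gene. Among circles without a host gene, the unadjusted p was lowest for the circle antisense to Dnm1 in the hippocampus (edgeR, log2 difference dark minus light of -2.01 ± 0.87, SE, unadjusted p = 0.0318, adjusted p = 0.966) and for Acot2/Acot1 in the cortex (-1.50 ± 0.69, unadjusted p = 0.0404, adjusted p = 0.993). For N4bp2l2/Gm43597 the difference was 0.26 ± 0.29 in the hippocampus and -0.15 ± 0.23 in the cortex (SE), and for the shorter circle on chromosome 15 it was -0.02 ± 0.28 in the hippocampus. For the circle antisense to Dnm1, which had no reads at ZT21, the fit of the phase alone gave -0.71 ± 0.63 (SE, edgeR, unadjusted p = 0.268), and its means were 3.76 ± 2.53 reads per 10000 in the light and 2.91 ± 3.70 in the dark (SD, n = 9). The dark minus light difference also did not pass the test between the tissues for any of 710 circles (0%) or of the 8, with 30 at an unadjusted p under 0.05 and 1 circle called by DESeq2 (0.141%), which had a host gene. Without the filter it was 2 of 6656 (0.03%), both with a host gene.

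Over the 6 time points, edgeR called 0 of 582 circles in the hippocampus (0%, 19 at an unadjusted p under 0.05) and 1 of 518 in the cortex (0.193%), which had a host gene. Without the filter, 14 of 5505 (0.254%) and 12 of 4790 (0.251%) were called, with 3 of 127 and 2 of 120 circles without a host gene. Among these were Mt2/Mt1 (edgeR, adjusted p = 2.32e-05) and the circle antisense to Dnm1 (0.00581) in the hippocampus, and Mt2/Mt1 (0.00232) and Psme4/Asb3 (0.00337) in the cortex. With the filter, edgeR gave adjusted p = 0.999 for Mt2/Mt1 and for the circle antisense to Dnm1 in the hippocampus (unadjusted 0.0773 and 0.0562). For Psme4/Asb3 in the cortex it gave 0.996 (unadjusted 0.0627). DESeq2 gave unadjusted p = 0.500, 0.0665 and 0.302 for the same 3 tests. These calls thus depended on leaving out the filter. Each circle named here had at least 1 time point at 0 reads in that tissue.

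Some circles were found in one tissue only, by a rule that names the 3 with the most reads. In the hippocampus these were a circle antisense to Ptk2b (34 reads, 7 samples), one at chrX:70819559-70830628 (plus, 31 reads, 8 samples) and one antisense to Rtn3, a reticulon (22 reads, 6 samples). In the cortex they were the circle on chromosome 17 named above, chr4:24238840-24240623 (minus, 28 reads, 6 samples) and chr12:11781409-11884915 (plus, 14 reads, 6 samples). In all, 325 of the 3757 circles (8.65%) were found in both tissues, compared with 33.8% of the circles with a host gene. The share was 3.44% in antisense and 16.5% in intergenic circles. A circle found in a single sample cannot be in both tissues. Such circles were 86.9% of those without a host gene and 57.3% of those with a host gene. They were 93.7% of the antisense and 76.3% of the intergenic circles. The shares found in both tissues thus depend on how often circles were found, and no tissue preference is read from them.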

How the data were processed

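Total RNA depleted of ribosomal RNA was sequenced from 36 samples. Per the labels and methods, the authors mapped reads to GRCm38 with BWA, found head-to-tail junctions with CIRI2 and deposited counts of circular reads per circle and sample. No strand-specific kit is named, and the smallest count above 0 was 2. The hippocampus table held 1 column that matched no sample, and it was not used. The members, gene lists, loci and classes were chosen with earlier results of these data known. Circles were placed on GENCODE M21 genes with Python 3.11.15 and pandas 2.3.3. Members were named by a rule: per class the 6 with the most reads and the 2 in the most samples, up to 5 called per fit, and the 3 with the most reads in one tissue and none in the other. Psme4/Asb3, the other circles called without the filter, the loci and the further gene pairs were named after their values were seen. A few members that the rule or a fit would name are not reported here.

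Circles found in at least 2 replicates of a time point were tested with edgeR 4.0.16 (quasi-likelihood test, TMM, filterByExpr, Benjamini-Hochberg adjustment over all circles tested, threshold 0.05). The fits had a term per time point and tissue. Alternatives were DESeq2 1.42.0, other scalings, no filter, a replicate block, leaving out each sample, and fits with fewer terms added after the data were seen. The fits were tested on simulated data. Deviations of samples with the same replicate number had a mean correlation of -0.00335 in the hippocampus, -0.0107 in the cortex and -0.0156 between tissues. At these low read counts such values cannot show whether samples of one number came from the same mouse. The main fits took the samples as unpaired. As no count of 1 is listed, a listed 0 can hide 1 read, and no upper limit is given for it.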

Additional observations from a re-analysis of the deposited data

Results flagged for a closer look

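In groups of 9 samples of one tissue and phase, 7 of 51 sets of values had a sample set apart from the others by a gap that is large for the range (Dixon's 95% critical value). Chance gives this in about 1 in 20 groups. The share of circular reads on circles with ends in 2 genes was 0.558% in cortex ZT5 replicate 1 (others in the light 0.141% to 0.328%) and 0.458% in cortex ZT21 replicate 2 (others in the dark 0.173% to 0.294%). On antisense circles it was 1.28% in hippocampus ZT1 replicate 3, the deepest sample (others 0.727% to 0.992%), and 1.23% in hippocampus ZT13 replicate 1, the shallowest (others 0.670% to 0.824%). On all circles without a host gene, hippocampus ZT13 replicate 1 had 2.64% (others 1.78% to 2.20%). Psme4/Asb3 had 3.67 reads per 10000 in hippocampus ZT5 replicate 1 and 0 in the others in the light. N4bp2l2/Gm43597 had 10.5 reads per 10000 in hippocampus ZT9 replicate 2 (others 1.57 to 4.72).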

How the results depend on the processing

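Without the filter on low counts, circles without a host gene called were 14 between the tissues, and 3 (hippocampus) and 2 (cortex) over time. Over all circles, 346 instead of 217 were called between tissues, 4 instead of 0 between phases in the hippocampus, 14 instead of 0 and 12 instead of 1 over time, and 2 instead of 0 for the difference of phases between tissues. Scaling to total circular reads called 1 circle between phases in the hippocampus, and DESeq2 called 0 over time in the cortex and 1 for the difference of phases between tissues. Fits with fewer terms called 5 of the 8 between tissues. With the replicate block 5 were called as well, with 187 circles in all, and the block gave 0 calls among circles without a host gene in the other comparisons. Among circles without a host gene, leaving out each sample gave 2 to 4 calls between tissues and 0 in the other comparisons. Over all circles, 1 was called between phases in the hippocampus in 3 such fits, and over time there in 2. For the difference of phases between tissues, 1 was called in 1 such fit. The single call over time in the cortex was lost in 9 such fits and kept in 9. The log2 difference of Mt2/Mt1, which had no usable standard error, was -0.54 to 1.06 without single samples, and it was negative without hippocampus ZT17 replicate 1.

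The share of reads on circles without a host gene was 1.09% in the hippocampus and 1.19% in the cortex when only circles found in at least 2 replicates of a time point were counted. It was 10.3% and 12.7% when only protein coding genes could be hosts, and 2.09% to 2.15% and 2.21% to 2.32% without single samples. Found in 3 of 3 replicates were 3.19% and 3.997% of circles. With one replicate number left out, 7.10% to 8.98% and 8.90% to 10.04% were found in both others.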

Other observations

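The read depth limited these comparisons: 2755 of the 3757 circles without a host gene (73.3%) had 2 reads in all samples together. Of all 3757, 8 passed the filter of the tissue fit. Junction sequences of intergenic circles and of ends in introns were not analysed here.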
